A study of Mus musculus with 4 samples.

Results

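The MICAL enzymes, the methionine sulfoxide reductases and the thioredoxin enzymes that serve those reductases were compared in quadriceps muscle of WT and Mef2dα2 Eko mice. These are 10 genes, Mical1, Mical2, Mical3, Msra, Msrb1, Msrb2, Msrb3, Txn1, Txnrd1 and Txnrd2, found by symbol among the 51826 rows of the deposited table, and all 10 passed edgeR's filter on low counts. They were chosen by their role and selected on the measured difference of Msrb1 between WT and Mef2dα2 Eko mice in these same libraries, so the differences of the 10 genes are given as a description, with no test. The RNA came from sedentary males about 20 weeks old, of which 2 were WT and 2 were Mef2dα2 Eko mice, described as littermates on a C57BL6/J background and fed standard chow. Mef2dα2 Eko mice lack the muscle-specific α2 exon of Mef2d, a transcription factor gene. The exon was deleted in the germ line with Cas9, so every tissue carries the deletion, and more than 1 founder line exists without a statement of which line gave these mice. WT mice carry no engineered allele. All muscles were collected within the same short period of the day.

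MICAL proteins are flavin enzymes that use NADPH to oxidise methionine residues of actin, which makes filaments fall apart. Methionine sulfoxide reductases turn the oxidised residue back into methionine, and the product of Msrb1 is known to do this for actin. Msra acts on the S form of methionine sulfoxide and the Msrb enzymes on the R form. Thioredoxin, made from Txn1, resupplies the reductases with electrons, and thioredoxin reductase takes these electrons from NADPH. Muscle is built around actin filaments and produces oxidants when it contracts.

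The Msrb enzymes differ at the residue that carries out catalysis, and the coding sequences around that residue show this. Msrb1 has selenocysteine there, written in the mRNA as TGA, a codon that otherwise stops translation. Msrb2 and Msrb3 have the cysteine codon TGC at the aligned position. The codons are in capitals below, read 5′ to 3′ on the coding strand of GRCm38 with the GENCODE M21 gene models.
Msrb1: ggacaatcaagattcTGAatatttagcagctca
Msrb2: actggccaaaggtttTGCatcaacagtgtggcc
Msrb3: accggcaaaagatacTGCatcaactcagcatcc
The codon of Msrb1 is number 95 of 116 and lies at chr17:24740158-24740160 in exon 3 of 4 on the plus strand. That of Msrb2 is number 162 of 175 at chr2:19394311-19394313 in exon 5 of 5 on the plus strand. That of Msrb3 is number 151 of 186 at chr10:120784176-120784178 in exon 7 of 7 on the minus strand.

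Both thioredoxin reductase genes also use TGA for selenocysteine, and here it is the next to last codon, so these sequences end with the true stop codon taa.
Txnrd1: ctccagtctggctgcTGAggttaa
Txnrd2: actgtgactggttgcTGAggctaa
In Txnrd1 it is codon 498 of 499, at chr10:82896037-82896039 in exon 14 of 14, and in Txnrd2 codon 526 of 527, at chr16:18477772-18477774 in exon 17 of 18, both on the plus strand. An annotated selenocysteine codon was thus present in 3 of the 10 genes, Msrb1, Txnrd1 and Txnrd2.

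Library totals were between 72626757 and 85176059 expected counts, and the totals of the genotypes overlapped. WT replicate 1 stood apart from the other libraries. Compared over genes, the chi-square value divided by its degrees of freedom was between 130 and 230 for its pairs with the other 3 libraries and between 38.7 and 45.3 for the pairs among those 3, so no library was a copy of another. Levels are given as CPM, counts scaled by library size. Mef2d itself had 259 and 227 CPM in WT mice and 252 and 241 CPM in Mef2dα2 Eko mice. Its total over all exons does not show whether the α2 exon is present, so it does not check the genotype labels. Muscle fibre markers, among them Acta1, Ckm and Myh4, summed to between 115567 and 120447 CPM in the 4 libraries, which are from muscle by their labels.

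Msrb1, the reductase of the cytosol and nucleus, was lower in Mef2dα2 Eko muscle. It had 6762 and 6411 counts in WT mice and 4280 and 3553 counts in Mef2dα2 Eko mice, which after TMM normalization were 89.1 and 79.3 CPM in WT mice and 49.6 and 49.7 CPM in Mef2dα2 Eko mice. Both Mef2dα2 Eko mice lay below both WT mice, and the Mef2dα2 Eko mice were nearly equal to each other. The mean was 84.2 ± 6.95 CPM (SD, n = 2) in WT mice and 49.7 ± 0.0245 CPM (SD, n = 2) in Mef2dα2 Eko mice, so that Mef2dα2 Eko mice had 59.0% of the WT level. The log2 fold change of Mef2dα2 Eko against WT was -0.76 with a standard error of 0.08, and 2 standard errors on either side reach from -0.92 to -0.60. Without WT replicate 1, the library that stood apart, it was -0.67. Counting error alone was between 1.22 and 1.68% of each count, less than the gap between the WT mice. It was more than the gap between the Mef2dα2 Eko mice, so their near equality is finer than counting can resolve. In whole muscle RNA, fewer cells that use a gene and less RNA per cell cannot be told apart.

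Of the 10 genes, 1, Msrb1, passed the test across all genes (edgeR's quasi-likelihood test, Benjamini-Hochberg adjustment, threshold 0.05), beside 0.416% of all 16120 genes tested (0.310% lower and 0.105% higher in Mef2dα2 Eko mice). As this difference chose the genes, nothing is read from that count. Both Mef2dα2 Eko mice lay below both WT mice for 2 of the 10 genes, Msrb1 and Mical2, beside 23.0% of all genes tested, and above both WT mice for 0 of 10, beside 20.8%. The genotypes overlapped for the other 8 genes, and 43.8% of all genes tested had genotypes that did not overlap, in either direction. At an unadjusted p below 0.05, edgeR had 11.6% of all genes tested, and DESeq2 called 2.39% of the 13307 genes it gave an adjusted p, the shares against which the counts of marker and list genes given further on can be read. The median log2 fold change of the 10 genes was -0.05 and that of all genes tested was -0.01, with quartiles of -0.15 and 0.13.

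**Figure D1:**
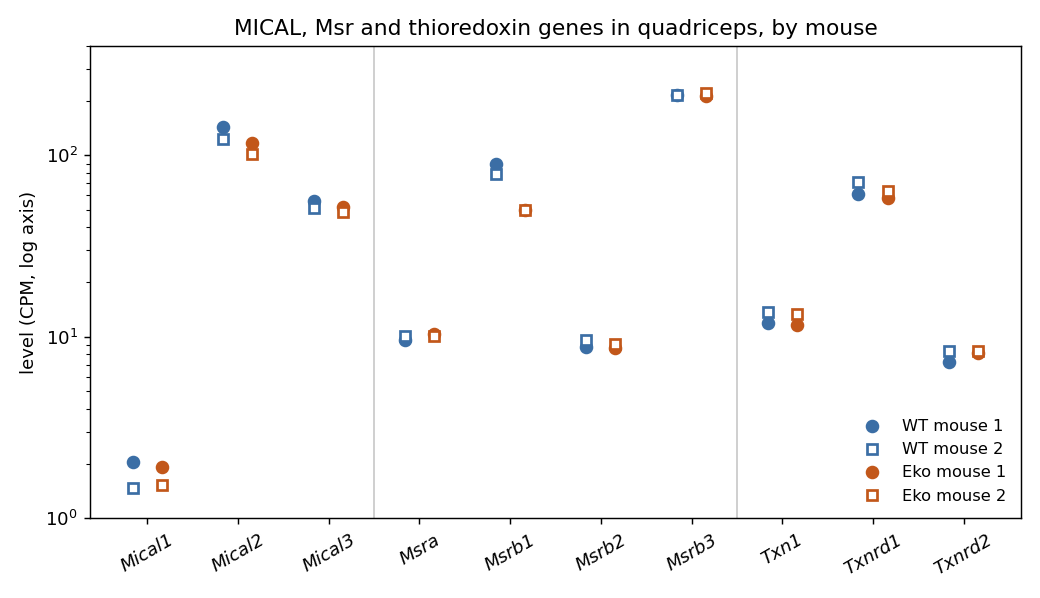
Level of each of the 10 genes in CPM on a log axis, with 1 point per mouse, WT mice in blue and Mef2dα2 Eko mice in orange (filled circles for replicate 1, open squares for replicate 2). Msrb1 lies at 79.3 and 89.1 CPM in WT mice and at 49.6 and 49.7 CPM in Mef2dα2 Eko mice, where the points lie on top of each other, while the points of Msrb3 lie together at 212 to 219.9 CPM in all 4 mice.

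Msrb1 (ENSMUSG00000075705.12) occupies chr17:24736642-24742778 on the plus strand, and no other gene overlaps it in GENCODE M21. Msrb1 was selected on its difference, so its place among genes of its level restates that choice and is only a description. Of the 1521 other genes at its mean level or above, 5 had a log2 fold change as low or lower, namely Odc1 at -1.18, Mettl21c at -1.08, Hsp90aa1 at -0.99, Smox at -0.94 and Scd1 at -0.78, which were singled out after their values were seen. Among the 1612 genes of its level decile, the median log2 fold change was 0.00 and the range from the 5th to the 95th percentile was -0.31 to 0.25. Log2 fold changes had a Spearman rho of -0.22 with the GC content of genes across 15636 genes, which come from the same 4 libraries and are not independent replicates. The 1564 genes in the GC decile of Msrb1, whose transcripts have 54.8% GC, had a median log2 fold change of -0.05.

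Markers of other cell types were compared beside Msrb1. The 7 macrophage markers, such as Lyz2 and Csf1r, summed to 53.2 and 42.3 CPM in WT mice and 36.4 and 28.4 CPM in Mef2dα2 Eko mice, and both Mef2dα2 Eko mice lay below both WT mice for 5 of the 7, beside 23.0% of all genes tested. The 7 adipocyte markers, such as Adipoq and Cfd, summed to 168 and 100.3 CPM in WT mice and 95.3 and 71.7 CPM in Mef2dα2 Eko mice, with 2 of the 7 below in both Mef2dα2 Eko mice, a share near that of all genes tested. Fabp4 made up most of this sum, at 86.9 and 68.8 CPM in WT mice and 68.8 and 60.2 CPM in Mef2dα2 Eko mice. Fabp4 and Adipoq overlapped between the genotypes, and Lep, with a log2 fold change of 0.21, went the other way. No marker on these lists was at 0 in all libraries. By edgeR 0 of 7 passed the test on either list, 5 macrophage and 4 adipocyte markers had an unadjusted p below 0.05 (beside 11.6% of all genes tested), and DESeq2 called 1 macrophage marker, Lyz2, and 0 adipocyte markers. These sums were lower in Mef2dα2 Eko mice, as Msrb1 was, and their part in the difference of Msrb1 was not tested. The macrophage and adipocyte sums were highest in WT replicate 1, the library that stood apart. The endothelial markers summed to 157 and 143 CPM in WT mice and 136 and 156 CPM in Mef2dα2 Eko mice, which overlap. The fibroblast, erythroid and satellite cell sums overlapped too, although 3 of 5 fibroblast markers lay below in both Mef2dα2 Eko mice, 2 of them at an unadjusted p below 0.05, and DESeq2 called 1 of them, Col3a1, with 0 calls by edgeR. Schwann and smooth muscle markers lay the other way from Msrb1. The Schwann markers summed to 22.7 and 25.5 CPM in WT mice and 28.2 and 34.4 CPM in Mef2dα2 Eko mice, with 3 of 4 above in both Mef2dα2 Eko mice (beside 20.8% of all genes tested), and the smooth muscle markers to 295 and 281 CPM in WT mice and 308 and 346 CPM in Mef2dα2 Eko mice, with 3 of 6 above. On each of these lists 2 markers had an unadjusted p below 0.05 and none was called by edgeR or DESeq2.

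The fibre markers differed among themselves. Myh4, the myosin of the fastest fibres, made up most of their sum, and the sum therefore says little of the others. Myh2, the myosin of fast oxidative fibres, had 1576 and 1709 CPM in WT mice and 1264 and 1041 CPM in Mef2dα2 Eko mice (log2 fold change -0.51, adjusted p 0.161). Myh1, the myosin of intermediate fast fibres, had 4967 and 3984 CPM in WT mice and 3476 and 3121 CPM in Mef2dα2 Eko mice (log2 fold change -0.44, adjusted p 0.261). Of the 8 fibre markers, 3 (Myh1, Myh2 and Acta1) lay below and 2 above in both Mef2dα2 Eko mice, edgeR called 0, 2 had an unadjusted p below 0.05 and DESeq2 called 2, Myh1 and Myh2. Like the macrophage markers, these myosins were lower where Msrb1 was lower, and their part in the difference of Msrb1 was not tested.

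The other 3 reductase genes overlapped between the genotypes. Msrb3, which encodes a reductase of the endoplasmic reticulum, had 214 and 215 CPM in WT mice and 212 and 219.9 CPM in Mef2dα2 Eko mice. Its log2 fold change was 0.01 with a standard error of 0.06, and 2 standard errors reach from -0.12 to 0.14. Msrb2, the mitochondrial reductase, had 8.79 and 9.62 CPM in WT mice and 8.64 and 9.07 CPM in Mef2dα2 Eko mice, so the log2 fold change was -0.06 (standard error 0.10). Msra had 9.58 and 10.2 CPM in WT mice and 10.4 and 10.1 CPM in Mef2dα2 Eko mice, so the log2 fold change was 0.06 (standard error 0.09). The gene of Msrb3 lies at chr10:120781096-120899101 on the minus strand, that of Msrb2 at chr2:19371440-19394976 on the plus strand and that of Msra at chr14:64122625-64455903 on the minus strand. Msrb3 is overlapped on the opposite strand by Gm15910, which had between 1.08 and 1.45 CPM. For Msrb2, 2 standard errors reach from -0.26 to 0.14, and for Msra from -0.13 to 0.24. Msrb1 was selected on its own difference, so its interval is not set against those of these 3 genes.

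**Figure D2:**
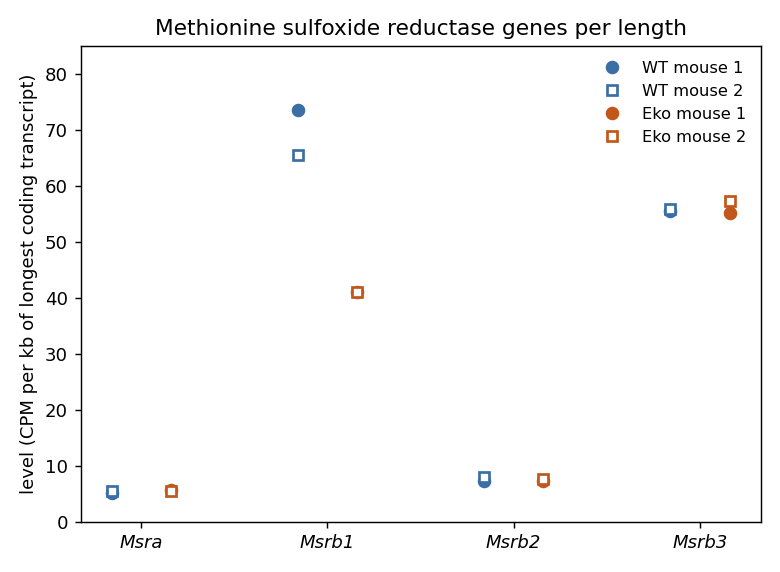
Level of the 4 methionine sulfoxide reductase genes per kb of the longest coding transcript, on a linear axis that starts at 0, with 1 point per mouse. Msrb1 lies at 65.5 and 73.6 CPM per kb in WT mice, above Msrb3 at 55.6 and 55.9, and at 41.0 CPM per kb in both Mef2dα2 Eko mice, below Msrb3 at 55.2 and 57.2.

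Per length, Msrb1 and Msrb3 supplied most of the reductase mRNA. Divided by the length of the longest coding transcript, the level of Msrb1 was 69.5 ± 5.74 CPM per kb in WT mice and 41.0 ± 0.0202 CPM per kb in Mef2dα2 Eko mice, and that of Msrb3 was 55.8 ± 0.227 and 56.2 ± 1.43 CPM per kb (SD, n = 2 for each). Msrb2 had 7.70 ± 0.491 and Msra 5.30 ± 0.217 CPM per kb in WT mice (SD, n = 2 for each). On this scale Msrb1 made up 51.9 and 48.5% of the summed level of the 4 reductases in WT mice and 37.6 and 36.9% in Mef2dα2 Eko mice, and the sum was 142 and 135 CPM per kb in WT mice and 109 and 111 CPM per kb in Mef2dα2 Eko mice. Msrb3 was then 39.2 and 41.5% of the sum in WT mice and 50.6 and 51.4% in Mef2dα2 Eko mice. Which of these genes led in WT mice depended on the length used. With the median length of the coding transcripts, Msrb1 was 43.0 and 39.8% of the sum in WT mice and 29.6 and 29.0% in Mef2dα2 Eko mice, and Msrb3 stood first in all 4 libraries, at 49.1 to 61.1%.

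Mical2, whose product acts on actin in the nucleus, was the other gene with both Mef2dα2 Eko mice below both WT mice. It had 10915 and 9949 counts in WT mice and 10125 and 7257 counts in Mef2dα2 Eko mice, or 144 and 123 CPM in WT mice and 117 and 101 CPM in Mef2dα2 Eko mice. The lower WT mouse and the higher Mef2dα2 Eko mouse were close to each other. The mean was 133 ± 14.7 CPM in WT mice and 109 ± 11.3 CPM in Mef2dα2 Eko mice (SD, n = 2 for each), and the log2 fold change was -0.29 with a standard error of 0.10. Leaving out 1 mouse at a time gave values from -0.38 to -0.17. Mical2 (ENSMUSG00000038244.14) lies at chr7:112225856-112413106 on the plus strand.

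Mical3 and Mical1 overlapped between the genotypes. Mical3, at chr6:120931707-121130999 on the minus strand, had 55.8 and 51.4 CPM in WT mice and 51.9 and 48.5 CPM in Mef2dα2 Eko mice, so the log2 fold change was -0.09 (standard error 0.08). Mical1, at chr10:41476314-41487032 on the plus strand, was the least abundant of the 10 genes, with 155 and 118 counts in WT mice and 166 and 109 counts in Mef2dα2 Eko mice. These are 2.04 and 1.46 CPM in WT mice and 1.93 and 1.52 CPM in Mef2dα2 Eko mice, and the log2 fold change was -0.02 with a standard error of 0.24. At this depth, 2 standard errors allow a log2 fold change of Mical1 anywhere from -0.50 to 0.47. Mical1 overlaps Smpd2 on the opposite strand, which had 3.90 and 4.67 CPM in WT mice and 4.42 and 4.39 CPM in Mef2dα2 Eko mice, so reads of either gene could have been counted for the other if strand was not used in counting.

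Within the MICAL family, Mical2 was the main mRNA in every mouse. Per kb of the longest coding transcript it made up 76.5 and 75.5% of the summed level of the family in WT mice and 74.0 and 72.7% in Mef2dα2 Eko mice. Mical3 made up between 21.5 and 25.2% and Mical1 between 1.67 and 2.27%. The summed level was 28.2 and 24.4 CPM per kb in WT mice and 23.8 and 20.9 CPM per kb in Mef2dα2 Eko mice. Both Mef2dα2 Eko mice again lay below both WT mice, by a gap smaller than the distance between the WT mice.

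The thioredoxin genes did not separate the genotypes. Txn1, for cytosolic thioredoxin, had 11.9 and 13.7 CPM in WT mice and 11.6 and 13.3 CPM in Mef2dα2 Eko mice, so the log2 fold change was -0.04 (standard error 0.11). Txnrd1, for the cytosolic thioredoxin reductase, had 61.3 and 71.5 CPM in WT mice and 57.9 and 63.9 CPM in Mef2dα2 Eko mice, so the log2 fold change was -0.12 (standard error 0.10). Txnrd2, for the mitochondrial thioredoxin reductase, had 7.29 and 8.35 CPM in WT mice and 8.14 and 8.35 CPM in Mef2dα2 Eko mice, so the log2 fold change was 0.08 (standard error 0.11). Like Msrb1, both reductase genes carry the TGA codon shown above, and a part of this codon in the differences was not tested. The genes lie at chr4:57943373-57956411 on the minus strand (Txn1), chr10:82833951-82897712 on the plus strand (Txnrd1) and chr16:18426384-18479073 on the plus strand (Txnrd2).

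**Figure D3:**
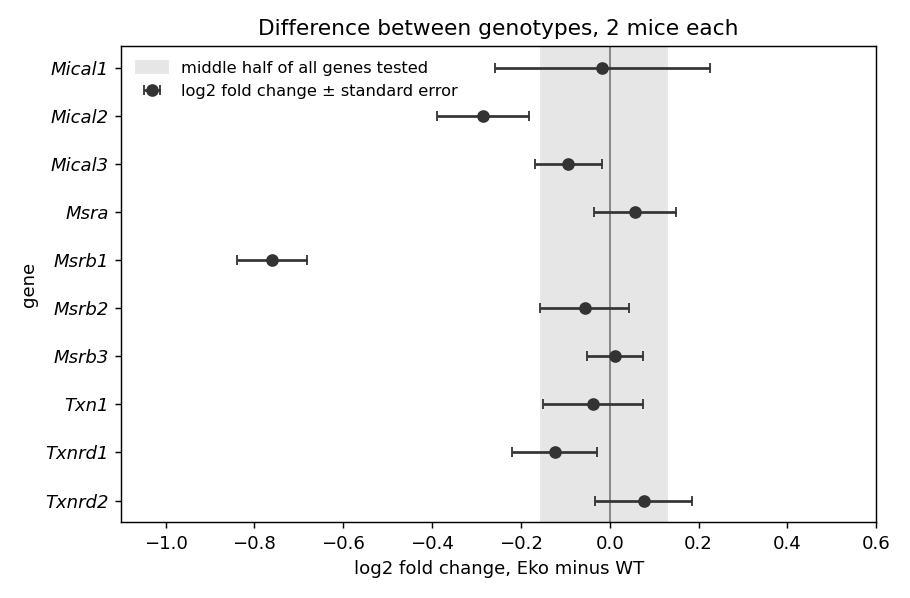
Log2 fold change of Mef2dα2 Eko against WT mice for each of the 10 genes, with bars of 1 standard error on either side from edgeR (2 mice per genotype) and a grey band from -0.15 to 0.13, the quartiles of all 16120 genes tested. Msrb1 at -0.76 and Mical2 at -0.29 lie to the left of the band, and the other 8 genes lie between -0.12 and 0.08.

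Across the 10 genes, the order of the levels per kb of the longest coding transcript in WT mice was Msrb1 (69.5), Msrb3 (55.8), Mical2 (20.0), Txnrd1 (18.3), Txn1 (12.2), Msrb2 (7.70), Mical3 (5.82), Msra (5.30), Txnrd2 (2.72) and Mical1 (0.491 CPM per kb). The WT mice of Mical2, at 18.4 and 21.6 CPM per kb, overlapped those of Txnrd1, at 16.9 and 19.7 CPM per kb, so these neighbours were not separated on this length. The WT mice of the other neighbours did not overlap. In Mef2dα2 Eko mice Msrb3 stood before Msrb1, and Txnrd1 at 16.8 ± 1.16 CPM per kb stood before Mical2 at 16.4 ± 1.69 CPM per kb (SD, n = 2 for each), a difference smaller than the spread. The order depended on the length used. With the median length of the coding transcripts the WT means were 97.3 CPM per kb for Msrb3, 80.3 for Msrb1, 56.7 for Mical2, 22.4 for Mical3, 20.0 for Txnrd1, 12.2 for Txn1, 8.36 for Msra, 7.70 for Msrb2, 4.38 for Txnrd2 and 0.511 for Mical1, so that Mical2 then stood well above Txnrd1 and Mical3 came next after Mical2.

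The 5 genes whose centred log2 levels over the 4 libraries were nearest to those of Msrb1 by Euclidean distance were Stom, Fkbp5, Alox5, Slc30a2 and Scube3, with distances from 0.0315 to 0.0679. Stom, which encodes the membrane protein stomatin, had 39.9 and 36.2 CPM in WT mice and 22.7 and 22.2 CPM in Mef2dα2 Eko mice. Fkbp5, a target of the glucocorticoid receptor, had 45.7 and 41.2 CPM in WT mice and 25.2 and 24.7 CPM in Mef2dα2 Eko mice. Slc30a2, a zinc transporter gene, had 30.3 and 27.0 CPM in WT mice and 17.5 and 17.6 CPM in Mef2dα2 Eko mice. Alox5 and Scube3 lay below 1 CPM in all 4 libraries. Likeness over 4 libraries is a description of these libraries.

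**Figure D4:**
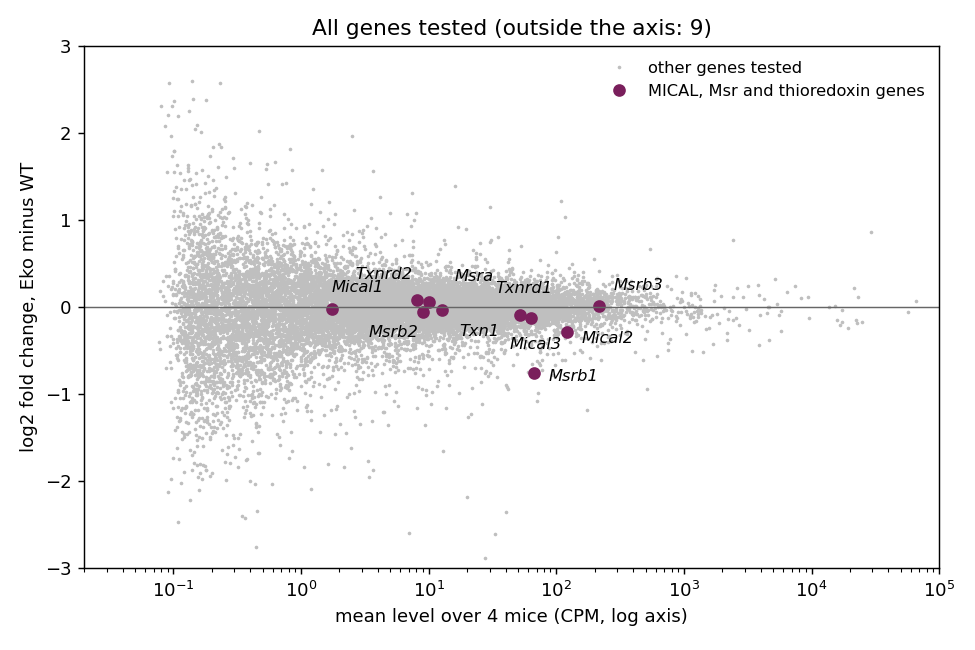
Log2 fold change of Mef2dα2 Eko against WT mice against the mean level over the 4 mice in CPM on a log axis, with all genes tested in grey and the 10 genes in purple. Another 9 genes lie outside the plotted range of log2 fold changes, and Msrb1 at 66.9 CPM sits at the lower edge of the grey points of similar level, with the other 9 genes inside them.

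MEF2 proteins bind an A and T rich consensus, and the promoters of the 10 genes were searched for it in the RefSeq windows from 250 bases before to 50 bases after each start on GRCm38.p6. On both strands, 0 of the 12 windows of 9 of the genes held the consensus, and Msra had no window. Of all 32851 windows of this length, 3.19% held it. The search says only that these letters are not in these windows.

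Genes around these enzymes were grouped into 8 lists of 137 genes, of which 131 were tested. In all, 1 of the 131 passed the test and was higher in Mef2dα2 Eko mice, 0 were lower and 130 did not pass, beside the 0.416% of all genes given above. The median log2 fold change of the 131 was -0.01, the same value as over all genes tested. At an unadjusted p below 0.05, edgeR had 22 of the 131 (beside 11.6% of all genes tested), and DESeq2 called 4 (beside 2.39%). Both Mef2dα2 Eko mice lay below both WT mice for 36 of the 131 genes, beside 23.0% of all genes tested, and above both for 28, beside 20.8%.

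Other selenoproteins, which share with Msrb1, Txnrd1 and Txnrd2 the reading of TGA as selenocysteine, did not pass the test. Of 21 such genes 18 were tested, with a median log2 fold change of 0.05 and 0 calls by edgeR, 3 at an unadjusted p below 0.05 (11.6% of all genes) and 1 by DESeq2. Gpx1, the cytosolic glutathione peroxidase whose mRNA is known to be sensitive to selenium supply, had 38.9 and 39.2 CPM in WT mice and 29.6 and 31.4 CPM in Mef2dα2 Eko mice. Its log2 fold change was -0.36 with a standard error of 0.07 and an adjusted p of 0.133. Selenow, the most abundant gene of the list, had 422 and 379 CPM in WT mice and 389 and 368 CPM in Mef2dα2 Eko mice (log2 fold change -0.08, adjusted p 0.733), and Gpx3 had 204 and 209 CPM in WT mice and 206 and 256 CPM in Mef2dα2 Eko mice. Selenos, of the endoplasmic reticulum, had a log2 fold change of 0.37 with an adjusted p of 0.276. The deiodinase genes Dio2 and Dio3 lay at or below 1.31 CPM in every mouse.

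The 8 genes that make selenocysteine and insert it at TGA gave 0 calls by edgeR, 2 at an unadjusted p below 0.05 (11.6% of all genes) and 0 by DESeq2, and their median log2 fold change was 0.05. Sepsecs, which makes selenocysteine on its tRNA, had 9.48 and 10.4 CPM in WT mice and 13.4 and 12.1 CPM in Mef2dα2 Eko mice (log2 fold change 0.36, adjusted p 0.265). Scly, the selenocysteine lyase, had 8.93 and 8.32 CPM in WT mice and 7.09 and 6.85 CPM in Mef2dα2 Eko mice (log2 fold change -0.31, adjusted p 0.331). Secisbp2, which binds the element that recodes TGA, and Sephs1 each had a log2 fold change of 0.08, and Rpl30, a ribosomal protein gene counted with the machinery, one of 0.04.

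**Figure D5:**
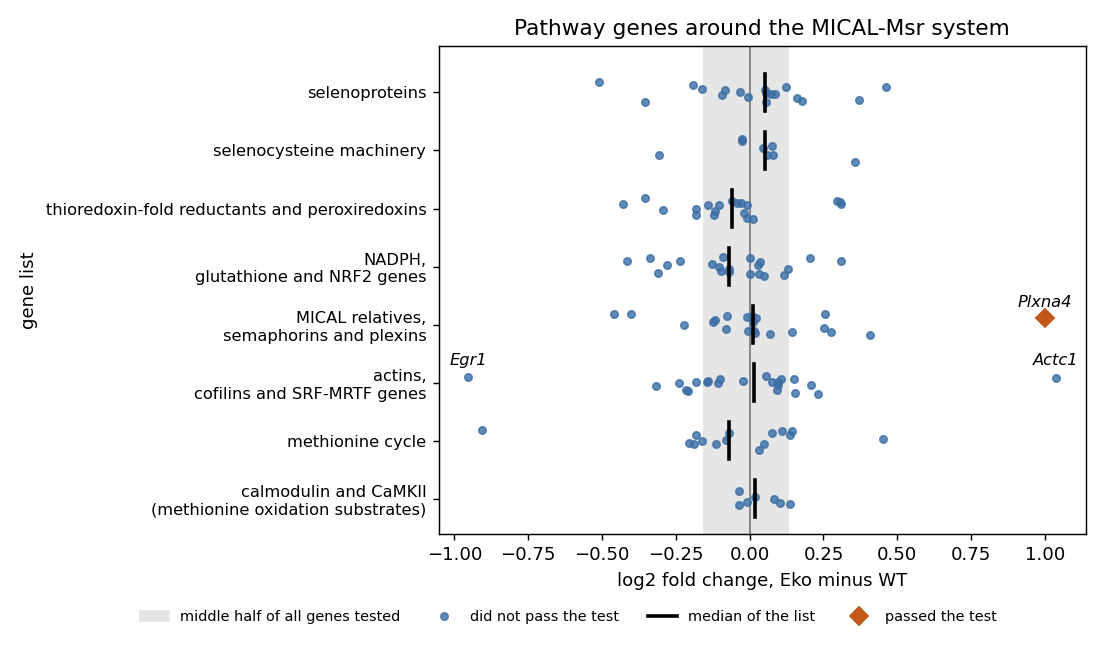
Log2 fold change of Mef2dα2 Eko against WT mice for the 131 tested genes of the 8 lists, with 1 point per gene, a black bar at the median of each list and a grey band between the quartiles of all genes tested. The medians of all lists lie inside the band, and Plxna4 at 1.00 (orange diamond) is the gene that passed the test.

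Among the 19 thioredoxin-fold reductants and peroxiredoxins, 0 passed edgeR's test, 6 had an unadjusted p below 0.05 (beside 11.6% of all genes tested) and DESeq2 called 1, with a median log2 fold change of -0.06. Txnip, the inhibitor that binds thioredoxin, differed widely within genotypes, with 421 and 213 CPM in WT mice and 430 and 353 CPM in Mef2dα2 Eko mice, so the log2 fold change was 0.31 (standard error 0.28). Glrx5, the mitochondrial glutaredoxin of iron-sulfur cluster assembly, had 32.7 and 32.9 CPM in WT mice and 25.9 and 25.4 CPM in Mef2dα2 Eko mice (log2 fold change -0.35, adjusted p 0.1251). Txnl4a, a splicing factor with a thioredoxin fold, had a log2 fold change of -0.43 with an adjusted p of 0.256. Prdx1, a peroxiredoxin that thioredoxin reduces, had 120 and 131 CPM in WT mice and 113 and 118 CPM in Mef2dα2 Eko mice, and Sesn2, for a stress-induced sestrin, had a log2 fold change of 0.31 (adjusted p 0.502).

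NADPH feeds both the MICAL reaction and thioredoxin reductase. The 21 genes of NADPH supply, glutathione and the NRF2 response gave 0 calls by edgeR, 4 at an unadjusted p below 0.05 (11.6% of all genes) and 0 by DESeq2, with a median log2 fold change of -0.07. G6pdx and Pgd, the NADPH-forming enzymes of the pentose phosphate pathway, had log2 fold changes of -0.42 and -0.34 with adjusted p of 0.569 and 0.368. Me1, the cytosolic malic enzyme, was far more abundant, with 283 and 315 CPM in WT mice and 297 and 321 CPM in Mef2dα2 Eko mice, as was Sod2, the mitochondrial superoxide dismutase, with 261 and 263 CPM in WT mice and 235 and 257.5 CPM in Mef2dα2 Eko mice. Nqo1, a standard NRF2 target, had a log2 fold change of 0.31 (adjusted p 0.477), and Cat, for catalase, one of -0.31 (adjusted p 0.300).

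MICAL proteins are known partners of plexins, the receptors of semaphorins. The list of these and of MICAL relatives, 21 genes, had a median log2 fold change of 0.01. It had 1 call by edgeR (beside 0.416% of all genes tested) and 2 by DESeq2 (beside 2.39%), Plxna4 and Sema3c. At an unadjusted p below 0.05, edgeR had 3 (beside 11.6% of all genes tested). Plxna4, a class A plexin, rose in Mef2dα2 Eko mice. It had 4.81 and 5.39 CPM in WT mice and 9.41 and 11.0 CPM in Mef2dα2 Eko mice, with an adjusted p of 0.0443 for a log2 fold change of 1.00 (standard error 0.13). With the filter set at 1 CPM or more in 2 libraries its adjusted p was 0.0556. Both Mef2dα2 Eko mice lay above both WT mice. Sema3c, a secreted semaphorin, had 45.6 and 48.8 CPM in WT mice and 64.0 and 61.2 CPM in Mef2dα2 Eko mice (log2 fold change 0.41, adjusted p 0.108). Plxna3 and Micalcl lay below 1 CPM in every mouse, and Rab1a, a small GTPase that binds MICAL proteins, had between 88.8 and 91.8 CPM. Plxna4 is overlapped on the opposite strand by antisense genes, whose reads cannot be told apart from its own unless counting used strand.

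Actin, the substrate of MICAL and Msrb1, and the genes controlled by actin through SRF and its MRTF cofactors formed a list of 22 genes with 0 calls by edgeR, 1 gene at an unadjusted p below 0.05 (11.6% of all genes), 0 calls by DESeq2 and a median log2 fold change of 0.02. Acta1, the skeletal muscle actin, had 23469 and 23210 CPM in WT mice and 20818 and 21456 CPM in Mef2dα2 Eko mice (log2 fold change -0.14, adjusted p 0.574). Actc1, the cardiac actin that muscle also uses before birth and during repair, had 96.7 and 55.9 CPM in WT mice and 150.4 and 163 CPM in Mef2dα2 Eko mice. Its log2 fold change was 1.04 with a standard error of 0.22 and an adjusted p of 0.172. Actg1 and Vcl, for cytoplasmic actin and vinculin, had log2 fold changes of -0.32 and -0.24, and Cfl2, for muscle cofilin, one of 0.11.

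The 15 tested genes of 18 in the methionine cycle gave 0 calls by edgeR, 3 genes at an unadjusted p below 0.05 (11.6% of all genes), 0 calls by DESeq2 and a median log2 fold change of -0.07. Mat2a, which makes S-adenosylmethionine, had 245 and 231 CPM in WT mice and 201 and 217 CPM in Mef2dα2 Eko mice (log2 fold change -0.19, adjusted p 0.396). Shmt1, a folate enzyme, had 6.76 and 6.55 CPM in WT mice and 8.87 and 9.34 CPM in Mef2dα2 Eko mice (log2 fold change 0.45, adjusted p 0.178). Gnmt lay below 1 CPM, and Ahcy and Adi1 had log2 fold changes of -0.20 and -0.07.

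Calmodulin and CaMKII, whose methionines are known to be oxidised and repaired by reductases, made up the last list of 7 genes. It had 0 calls by edgeR and by DESeq2, 0 genes at an unadjusted p below 0.05 and a median log2 fold change of 0.02. Camk2a, a catalytic subunit of CaMKII, had 596 and 586 CPM in WT mice and 581 and 594 CPM in Mef2dα2 Eko mice. Calm2, Calm3 and Camk2g had log2 fold changes of -0.04, 0.08 and 0.10. The largest difference of the list was that of Camk2b, with 168 and 175 CPM in WT mice and 187 and 189 CPM in Mef2dα2 Eko mice (log2 fold change 0.14, adjusted p 0.477).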

How the data were processed

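PolyA-selected quadriceps RNA of 2 WT and 2 Mef2dα2 Eko mice was sequenced as 1 library per mouse, and genotypes were taken from the sample labels. The authors aligned the reads to mm10 (STAR 2.6.1a is named in the submitters' processing notes), estimated expected counts per gene with RSEM and deposited these expected counts without normalization. The strand setting of counting is not given in the sources used here. RSEM divides reads that match several genes, and 0 of the deposited values were not whole, so rounding changed none.

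Counts were analysed in R 4.3.3 with edgeR 4.0.16, using TMM normalization, the default filter on low counts, genotype as the sole term, the quasi-likelihood test across the whole table and Benjamini-Hochberg adjustment at 0.05. The filter kept 16120 of 24621 genes with any count. The small default prior count of edgeR was kept for log2 fold changes, whose standard errors were derived from the F statistic. A gene with 3 counts, taken as the floor, would have from 0.0352 to 0.0413 CPM depending on the library (counting error alone). The design was tested on simulated data. Of 195 tested genes given a known change, 66 were called, as were 4 unchanged genes, so a gene that is not called may still differ. With 2 mice against 2, an exact two-sided permutation test of a single value cannot give a p below 0.333, so none was used.

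The 10 genes and the gene lists were chosen with earlier results of these data known. All 10 genes are named, and from each list those past the threshold, up to 4 with the largest log2 fold change in either direction and the 2 with the highest mean CPM, except 1 gene that is not reported here. Per length levels divide CPM by the longest, or by the median, coding transcript of GENCODE M21, in which 92.1% of the table's rows have their symbol. Its gene models differ from the annotation the authors used. Alternatives were DESeq2 1.42.0, RLE normalization, no filter, keeping genes with 1 CPM or more in 2 libraries, a block for the replicate number, and fits without 1 of the mice.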

Additional observations from a re-analysis of the deposited data

How the results depend on the processing

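Msrb1 had a log2 fold change between -0.83 and -0.67 when each mouse was left out in turn, the latter without WT replicate 1. It passed the threshold under every alternative that kept all mice. These fits reuse the libraries in which Msrb1 was selected, so nothing is read from its passing. With no filter on low counts Mical2 passed as well. The number of genes past the threshold, 67 with the settings of the report, was 318 with DESeq2, 799 with no filter, 23 with at least 1 CPM in 2 libraries and 58 with RLE normalization, and between 99 (without WT replicate 1) and 299 (without WT replicate 2) with a mouse left out. Of the 131 list genes, DESeq2 called 4 (Glrx5, Gpx1, Plxna4 and Sema3c) and the fit with no filter 12. With at least 1 CPM in 2 libraries, edgeR's quasi-likelihood test called 0, with 23 at an unadjusted p below 0.05, and Plxna4 stood at 1.00 (log2 fold change) with 0.0556 as its adjusted p. With a mouse left out between 1 and 3 were called, the additional genes being Actc1, Actg1, Sema3c and Txnip. The cause of these shifts was not tested. Where leaving out a mouse leaves 1 mouse in a genotype, that mouse is assumed to vary like the others.

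The replicate numbers of the labels number different mice. Differences between replicates 1 and 2 in WT and in Mef2dα2 Eko mice had a Pearson correlation of 0.0909 and a Spearman correlation of 0.155 across 16120 genes, and the numbers were not taken to pair the mice. With the replicate number as a block, 186 genes passed the threshold, 2 of them in the lists (Actc1 and Plxna4), and Msrb1 did too. With 2 mice per genotype, small differences of genes with few counts, such as Mical1, could not be resolved.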

Other observations

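Egr1 and Fos, immediate early genes that SRF controls, varied more between mice of a genotype than between genotypes. Egr1 had 22.2 and 2.99 CPM in WT mice and 10.1 and 2.70 CPM in Mef2dα2 Eko mice, so the log2 fold change was -0.95 (standard error 0.88). Fos, named after its values were seen, had 7.64 and 3.33 CPM in WT mice and 8.70 and 2.94 CPM in Mef2dα2 Eko mice. In both genotypes 1 mouse was high and 1 was low for both genes. Fits without 1 of the mice gave Egr1 a log2 fold change from -2.20 to 1.11. Msrb1 had 89.1 and 79.3 CPM in WT mice, higher in replicate 1 as both genes were, and nearly equal levels in Mef2dα2 Eko mice (49.6 and 49.7 CPM). A link between Msrb1 and this split was not tested.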
